A study of Arabidopsis thaliana with 6 samples.

Results

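A set of 10 genes of homogalacturonan synthesis and methylation were followed in RNA-seq libraries of dissected Arabidopsis thaliana inflorescence meristems. They are the rows of those loci among the 32833 in each count table: the galacturonosyltransferase genes QUA1 (AT3G25140), GAUT1 (AT3G61130), GAUT4 (AT5G47780), GAUT7 (AT2G38650), GAUT10 (AT2G20810) and GAUT11 (AT1G18580), and the methyltransferase genes QUA2 (AT1G78240), QUA3 (AT4G00740), CGR2 (AT3G49720) and CGR3 (AT5G65810). They were picked by locus identifier, for their known roles.

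The plants labelled VGD1, genotype pCLV3>>erTurquoise, >>VGD1, carried an inducible VGD1, a pectin methylesterase gene, under the CLV3 stem cell promoter, together with the fluorescent reporter erTurquoise. The controls, genotype pCLV3>>erTurquoise, carried the reporter alone. Both groups held the dexamethasone-gated driver GR-LhG4 and were sprayed with dexamethasone, so that induction itself is shared between them. There were 3 libraries labelled VGD1 and 3 controls, all poly(A)-selected, from apices of 15 cm tall stems. The labels put harvest at 72 hours after induction in one place and at 48 hours in another, and dexamethasone at 30 µM and at 30 mM. Whether replicates of a group came from different plants is not stated, so p-values here measure only how far these libraries spread, which may be technical.

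Homogalacturonan is the linear polymer of galacturonic acid that makes up much of the pectin of primary cell walls. Galacturonosyltransferases of the GAUT family build the chain in the Golgi, and methyltransferases there add methyl esters before the polymer is secreted. Pectin methylesterases such as VGD1 later remove those esters in the wall, which changes how pectin binds calcium and how stiff the wall is. The comparison asks whether the genes of the synthetic, methyl-adding side of this cycle differed when a methyl-removing enzyme was to be expressed in the stem cells.

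Library totals ran from 18432365 to 19394881 counts in the libraries labelled VGD1, and from 6638772 counts in control replicate 3 to 24437872 counts in the controls. VGD1 itself did not mark its group: it stood at 6.59, 7.92 and 7.11 CPM (counts scaled to the library total with TMM factors) in the libraries labelled VGD1, against 11.4, 12.7 and 4.80 CPM in controls, and those groups overlapped (log2 fold change -0.57, edgeR adjusted p = 0.372). VGDH1, a close relative of VGD1, averaged 2.57 CPM in the libraries labelled VGD1 and 2.96 CPM in controls. The libraries are therefore called by their label throughout. CLV3, which encodes a stem cell peptide, had 3, 8 and 11 counts (0.150, 0.417 and 0.593 CPM) in the libraries labelled VGD1. It had 0 counts in every control, where 0 allows up to 0.133, 0.124 and 0.450 CPM. Replicates 1 and 2 labelled VGD1 lay under the limit of control replicate 3, so that control does not separate from them. Other meristem genes were present: STM averaged 78.2 ± 15.8 CPM in the libraries labelled VGD1 and 69.3 ± 2.74 CPM in controls, CLV1 59.9 ± 2.57 and 51.6 ± 5.90 CPM, and WUS 3.01 ± 1.54 and 3.67 ± 0.65 CPM (SD, n = 3 each). Summed levels of some markers of other tissues stood apart between the groups, although no marker was called, where 0.416% of all tested genes were. The 6 vascular markers summed to 138 to 212 CPM in the libraries labelled VGD1 and 224 to 303 CPM in controls, the 8 anther and pollen markers to 59.0 to 119.9 and 125 to 150.1 CPM, and the 6 green tissue markers, which overlapped, to 7877 to 9850.2 and 8613 to 12451 CPM. All 6 vascular markers, all 6 green tissue markers and 4 of 6 tested anther and pollen markers had a log2 fold change below 0. The anther and pollen sums were apart through A9, named after its values were seen: without it they were 34.6, 29.4 and 37.5 CPM in the libraries labelled VGD1 and 42.3, 41.5 and 29.99 CPM in controls, and overlapped. The 5 epidermis markers, 4 of them above 0, summed to 2009 to 2289 CPM in the libraries labelled VGD1 and 1702 to 2033 CPM in controls. An unadjusted edgeR p under 0.05 was reached by 6 of 6 vascular, 3 of 6 green tissue and 1 of 5 epidermis markers. It was reached by 0 of 6 tested anther and pollen markers, and by 13.6% of all tested genes. Groups were apart for 5 of 6 vascular, 1 of 6 green tissue and 2 of 5 epidermis markers, beside 17.2% of all tested genes. The smallest edgeR adjusted p among the vascular markers was 0.072. No member of these lists was at 0 in all libraries, and their part in the results on the pectin genes was not tested. RNA was taken from whole dissected tips, so fewer cells of a type and less RNA per cell cannot be told apart.

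None of the 10 homogalacturonan genes passed the test between the groups. The edgeR quasi-likelihood test called 0 of 10 at an adjusted p of 0.05, where it called 82 of 19719 genes tested, or 0.416%, with 0.101% higher (20 genes) and 0.314% lower (62 genes). With library totals in place of TMM the split was 30 higher and 56 lower, which keeps the majority lower. The balance turned with replicate 2 labelled VGD1 left out, to 46 genes higher against 39 lower, and with replicate 3 labelled VGD1 left out, to 26 genes higher against 19 lower. At that background a count of 0 among 10 genes does not set them apart from other genes. All 10 passed the filter on low counts. At an unadjusted p under 0.05 the count was 1, QUA1, against 13.6% of all tested genes. DESeq2 and limma-voom also called 0 and had QUA1 alone under 0.05 unadjusted. Over all genes DESeq2 called 419 of 20519 and limma-voom 45 of 19719, with 2363 and 2798 genes under 0.05 unadjusted. With 1 library left out, 0 of the 10 genes were under 0.05 unadjusted in 5 of 6 fits, and QUA1 alone was so without replicate 1 labelled VGD1. Over all genes those 6 fits put from 1490 of 19929 (without control replicate 2) to 2907 of 20057 (without control replicate 3) under 0.05 unadjusted. Of the 10 log2 fold changes 3 lay above 0 and 7 below (5 and 5 with library totals in place of TMM), with a median of -0.03, beside a median of -0.00038 over all tested genes. Their median size, without sign, was 0.07, beside 0.14 for all tested genes.

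**Figure D1:**
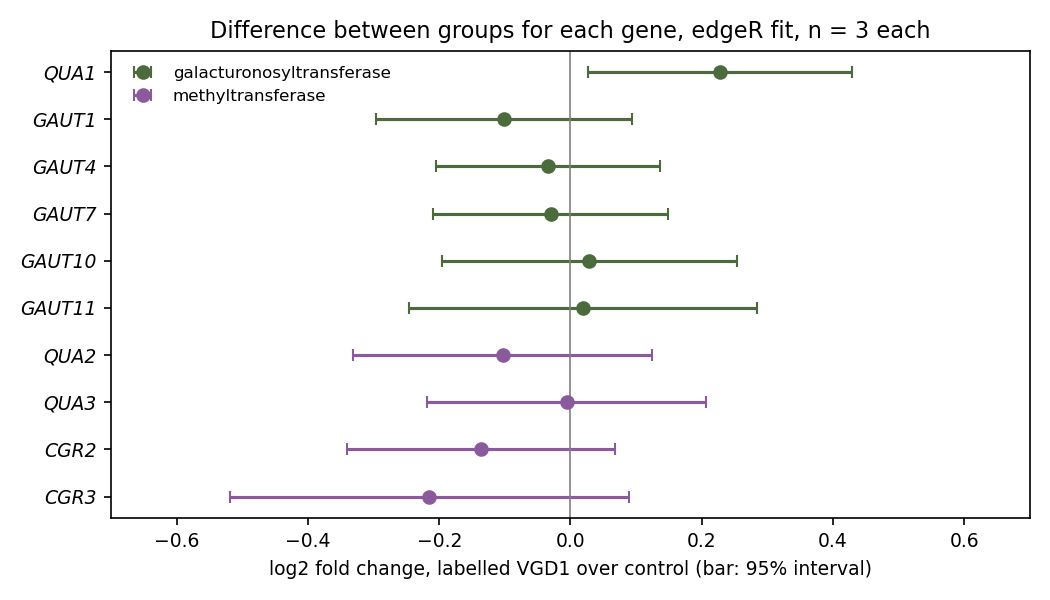
Log2 fold change of each gene in the libraries labelled VGD1 over controls (x axis) from the edgeR fit, with the 95% interval as a bar; 3 libraries in each group, galacturonosyltransferases in green and methyltransferases in purple. All intervals except that of QUA1, at the top, include 0, and the points of the 4 methyltransferase genes lie below 0, that of QUA3 so close that it turns to 0.026 with library totals in place of TMM.

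Each interval gives a range for the difference of 1 gene in the whole dissected tip. It rests on the spread among these libraries, which may be technical. Taken gene by gene, with no joint interval computed, the 95% intervals of the 10 genes lay between 0.698-fold, the lower end for CGR3, and 1.35-fold, the upper end for QUA1. The log2 interval of GAUT4 ran from -0.20 to 0.14, and that of GAUT7 from -0.21 to 0.15. These intervals apply to the whole tip, and levels in the stem cells alone were not measured.

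QUA1 (also GAUT8) encodes a galacturonosyltransferase whose loss lowers homogalacturonan and loosens cell adhesion. It was the 1 gene of the 10 whose groups did not overlap, as was so for 17.2% of all tested genes, 8.17% with the libraries labelled VGD1 above and 9.02% with them below. Its level was 131, 148 and 157 CPM in replicates 1 to 3 labelled VGD1, against 121, 127 and 124 CPM in control replicates 1 to 3. Every library labelled VGD1 lay above every control, and the spread among the libraries labelled VGD1 was the wider. The log2 fold change was 0.23 (SE 0.09), a 1.17-fold difference with a 95% interval from 1.02-fold to 1.35-fold, and the edgeR adjusted p was 0.306. Leaving out 1 library at a time gave log2 fold changes from 0.17 to 0.30 and edgeR adjusted p-values from 0.148 to 0.673. QUA1 overlaps AT3G25150, a gene on the other strand, along 191 bp of exon (RefSeq, TAIR10.1), and no source used here says whether reads were counted by strand. AT3G25150 stood at 161, 158 and 167 CPM in the libraries labelled VGD1 against 143, 152 and 155 CPM in controls (log2 fold change 0.11, SE 0.08, edgeR adjusted p = 0.608), so its groups were apart in the same direction. How far reads of the pair were shared was not tested.

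GAUT1, the catalytic galacturonosyltransferase of the first purified homogalacturonan-synthesizing complex, stood at 115.7, 129.5 and 131 CPM in the libraries labelled VGD1, against 130.3, 142 and 130.6 CPM in controls. Replicate 1 labelled VGD1 was lowest and control replicate 2 highest, with the other libraries close together (log2 fold change -0.10, SE 0.09, edgeR adjusted p = 0.677). The log2 fold change of GAUT1 came to -0.045 without replicate 1 labelled VGD1 and to -0.06 without control replicate 2. GAUT7, the partner that anchors GAUT1 in the Golgi membrane, stood at 91.8, 94.99 and 93.5 CPM in the libraries labelled VGD1, against 90.4, 96.5 and 100.0 CPM in controls, and the controls spanned the other group entirely (log2 fold change -0.03, SE 0.08, edgeR adjusted p = 0.917). Per kb of exon, GAUT1 RNA exceeded GAUT7 RNA in every library. The ratio averaged 1.33 in the libraries labelled VGD1 and 1.39 in controls, within 1.25 to 1.46 over the 6 libraries. On the log2 scale it was 0.41 ± 0.08 and 0.48 ± 0.09 (SD, n = 3 each), a difference of -0.07 with a two-sided exact permutation p of 0.4, where 3 against 3 libraries cannot give less than 0.1. The difference came to -0.023 without replicate 1 labelled VGD1, -0.033 without control replicate 2 and -0.12 without control replicate 3.

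GAUT4, a galacturonosyltransferase studied for its part in pectin amount and biomass in other plants, varied least of the 10. Its level was 118, 113.5 and 112 CPM in the libraries labelled VGD1 against 117.6, 117.6 and 116.7 CPM in controls, and the highest library was 1.05 times the lowest. The SD of its log2 level over the 6 libraries was 0.03, while the median was 0.12 among 2091 tested genes within 1.5-fold of its CPM, of which 0.383% varied less. Counting error alone was 3.59% at its lowest count, 778 in control replicate 3. The SD of its CPM was 2.72% of the mean in the libraries labelled VGD1 and 0.467% in controls. A spread that small is not above counting error, so this rank need not be a trait of the gene. GAUT10 and GAUT11, galacturonosyltransferases studied mainly in roots and in seed mucilage, were the lowest of the 6. GAUT10 stood at 25.97, 28.2 and 27.8 CPM in the libraries labelled VGD1 against 26.4, 28.0 and 25.5 CPM in controls (log2 fold change 0.03, SE 0.10, edgeR adjusted p = 0.940). GAUT11 stood at 18.8, 20.0 and 21.9 CPM in the libraries labelled VGD1 against 19.3, 19.3 and 22.2 CPM in controls (log2 fold change 0.02, SE 0.12, edgeR adjusted p = 0.964). Groups overlapped for both.

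CGR2 and CGR3 encode a pair of Golgi methyltransferases that act redundantly in methylesterification of homogalacturonan. CGR2 stood at 114.8, 116 and 130.3 CPM in the libraries labelled VGD1, against 137.5, 136.8 and 121 CPM in controls. Replicates 1 and 2 labelled VGD1 lay below every control, whereas replicate 3 lay above control replicate 3. The log2 fold change was -0.14 (SE 0.09, edgeR adjusted p = 0.570). CGR3 stood at 33.7, 43.4 and 46.9 CPM in the libraries labelled VGD1, against 47.9, 52.6 and 41.5 CPM in controls. Replicate 1 labelled VGD1 was the lowest library and control replicate 3 the next lowest, so that CGR3 was also the most variable of the 10 genes, its highest library at 1.56 times the lowest. Its log2 fold change was -0.21 (SE 0.14, edgeR adjusted p = 0.545), and it came to -0.09 without replicate 1 labelled VGD1 and to -0.13 without control replicate 2.

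The pair are close copies, with 83.9% identity over 777 aligned bases of coding sequence, and the longest stretch without a difference was 35 bases. Pairs of 1 of the 10 genes with another gene of its family, GAUT or QUA2-like, were scored where most of the shorter coding sequence aligned. This left some pairs out, such as QUA1 and GAUT7. No other scored pair came above 72.0% (QUA1 and GAUT9) or had an identical stretch over 22 bases. How the counting treated reads that match both copies is not known, so the split between CGR2 and CGR3 is uncertain to that extent. Per kb of exon, CGR2 gave 77.1%, 72.5% and 73.3% of the CGR2 plus CGR3 RNA in the libraries labelled VGD1, against 73.9%, 72.0% and 74.2% in controls. The means, 74.3 ± 2.44% and 73.4 ± 1.20% (SD, n = 3 each), differed by 0.925 percentage points (two-sided exact permutation p = 0.8). CGR2 also overlaps AT3G49710 and the non-coding AT3G08075 on the other strand, along 88 bp of exon in all. The higher of them, AT3G49710, averaged 8.92 ± 0.80 CPM in the libraries labelled VGD1 and 8.26 ± 1.24 CPM in controls (SD, n = 3 each).

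QUA2 encodes a Golgi methyltransferase whose loss, like that of QUA1, lowers homogalacturonan and loosens cell adhesion. It stood at 87.3, 81.6 and 73.6 CPM in the libraries labelled VGD1, against 89.8, 92.4 and 76.5 CPM in controls. Replicate 3 was the lowest library of both groups, below the other 2 by more than the groups differed (log2 fold change -0.10, SE 0.10, edgeR adjusted p = 0.723). The log2 fold change of QUA2 ran from -0.038 without replicate 3 labelled VGD1 to -0.17 without control replicate 3, and was -0.16 without replicate 1 labelled VGD1, -0.05 without control replicate 2 and -0.07 without control replicate 1. QUA3, a putative homogalacturonan methyltransferase of the Golgi, stood at 64.0, 74.2 and 76.6 CPM in the libraries labelled VGD1, against 69.5, 71.1 and 75.9 CPM in controls. Replicate 1 labelled VGD1 was lowest and replicate 3 labelled VGD1 highest, so that the controls lay inside the range of the other group (log2 fold change -0.01, SE 0.10, edgeR adjusted p = 0.991).

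Replicate 1 labelled VGD1 was the lowest of the 6 libraries for 5 of the 10 genes, GAUT1, GAUT11, QUA3, CGR2 and CGR3. Its median deviation from the control mean was -0.08 on the log2 scale over the 10 genes, beside -0.03 and -0.01 for replicates 2 and 3 labelled VGD1. Its TMM factor, 1.04, was the largest of the 6, beside 0.973 to 1.01 in the others, and a larger factor lowers CPM. These deviations were not computed with library totals in place of TMM. The share of all tested genes that were lowest in this library was not computed either. The same library had the lowest sum of the vascular markers (138 CPM), the green tissue markers (7877 CPM) and the meristem markers (308 CPM), the highest sum of the epidermis markers (2289 CPM), and the highest anther and pollen sum of its group (119.9 CPM). Whether this bears on its pectin gene levels was not tested.

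The order of the genes by level was almost the same in both groups. Levels were compared per kb of exon, since longer transcripts give more reads. CGR2 was highest, at 95.7 ± 6.89 CPM per kb in the libraries labelled VGD1 and 104.8 ± 7.49 CPM per kb in controls, and GAUT11 lowest, at 8.96 ± 0.68 and 8.98 ± 0.74 CPM per kb (SD, n = 3 each). Over all 6 libraries CGR2 was 11.2 times GAUT11. After CGR2 came QUA1 with 63.4 ± 5.74 CPM per kb in the libraries labelled VGD1 and 54.1 ± 1.28 CPM per kb in controls, then GAUT1 with 46.1 ± 3.10 and 49.4 ± 2.49 CPM per kb, and GAUT4 with 47.2 ± 1.28 and 48.3 ± 0.23 CPM per kb. GAUT1 and GAUT4 were not separated: GAUT1 was the higher in 3 of 6 libraries. CGR3, at 33.3 ± 5.49 CPM per kb in the libraries labelled VGD1 and 38.1 ± 4.46 CPM per kb in controls, and GAUT7, at 34.7 ± 0.60 and 35.5 ± 1.80 CPM per kb, likewise changed places, with CGR3 above in 3 of 6 libraries. QUA2 followed with 27.4 ± 2.33 CPM per kb in the libraries labelled VGD1 and 29.2 ± 2.90 CPM per kb in controls, above QUA3 in 5 of 6 libraries, while QUA3 had 24.1 ± 2.25 and 24.3 ± 1.12 CPM per kb. GAUT10 had 14.3 ± 0.63 and 13.9 ± 0.67 CPM per kb. All other neighbours in this order kept their places in 6 of 6 libraries, with ranges that did not overlap. Beyond neighbours, CGR3 lay below QUA2 in replicate 1 labelled VGD1, at 27.1 against 29.6 CPM per kb. Among 19622 tested genes with a known exon length, whose median was 11.9 CPM per kb over the 6 libraries, CGR2 was at the 94.9th percentile, QUA1 at the 90.3rd, QUA2 at the 77.4th and GAUT11 at the 41.6th.

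**Figure D2:**
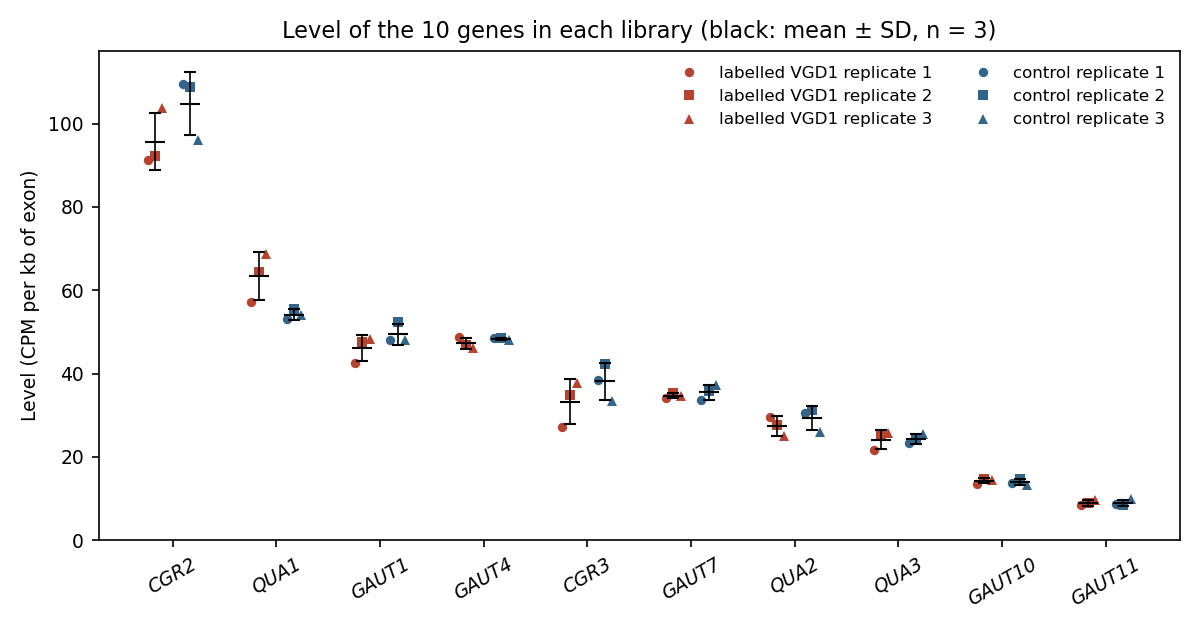
Level of each gene in CPM per kb of exon (y axis) in every library, genes in descending order along the x axis; red points are the 3 libraries labelled VGD1 and blue points the 3 controls, with black bars for mean and SD. CGR2 stands above the rest in both groups, and the red points of QUA1 lie above its blue points, while for the other 9 genes red and blue overlap.

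Methyltransferase RNA was set against galacturonosyltransferase RNA, since both act on the same polymer. The 4 methyltransferase genes summed to 169.6, 179.7 and 192 CPM per kb in the libraries labelled VGD1, against 202, 206 and 181 CPM per kb in controls. The 6 galacturonosyltransferase genes summed to 204, 218 and 222 CPM per kb in the libraries labelled VGD1, against 205, 215 and 210.4 CPM per kb in controls. Control replicate 3 lay with the libraries labelled VGD1 in the methyltransferase sum, and the groups overlapped in both sums. The ratio of methyltransferase to galacturonosyltransferase RNA averaged 0.840 in the libraries labelled VGD1 and 0.934 in controls. On the log2 scale it was -0.25 ± 0.04 and -0.10 ± 0.10 (SD, n = 3 each), a difference of -0.15 with a two-sided exact permutation p of 0.2. Without division by exon length the difference was -0.12 with a two-sided exact permutation p of 0.1, the smallest that 3 against 3 libraries can give. With 1 library left out the difference ran from -0.21 to -0.11, with exact permutation p-values from 0.2 to 0.4. With same-numbered libraries paired, exact sign flips gave a p of 0.5. By role, 3 of 6 galacturonosyltransferase genes and 4 of 4 methyltransferase genes had a log2 fold change below 0, with medians of -0.0054 and -0.12; with library totals in place of TMM these were 2 of 6 and 3 of 4, with medians of 0.028 and -0.09.

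Among all 15 GAUT genes the 6 described here made up most of the RNA per kb of exon. They gave 71.3%, 71.8% and 71.5% of the family sum in the libraries labelled VGD1, against 69.0%, 70.03% and 69.4% in controls, so these shares did not overlap. The share of QUA1 was 21.1 ± 1.09% in the libraries labelled VGD1 and 17.9 ± 0.14% in controls, with groups apart. That of GAUT1 was apart in the other direction, at 15.4 ± 0.46% in the libraries labelled VGD1 and 16.3 ± 0.61% in controls (SD, n = 3 each). The shares of GAUT4, GAUT7, GAUT10 and GAUT11 overlapped. Outside the 6, the share of GAUT14, named after its values were seen, was also apart. It was 3.40 ± 0.24% in the libraries labelled VGD1 and 3.87 ± 0.36% in controls (SD, n = 3 each). Shares sum to a whole, so that one share moves the rest, and they were not tested. The CPM of GAUT1 itself overlapped between the groups. How often such shares are apart in other gene families was not computed.

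**Figure D3:**
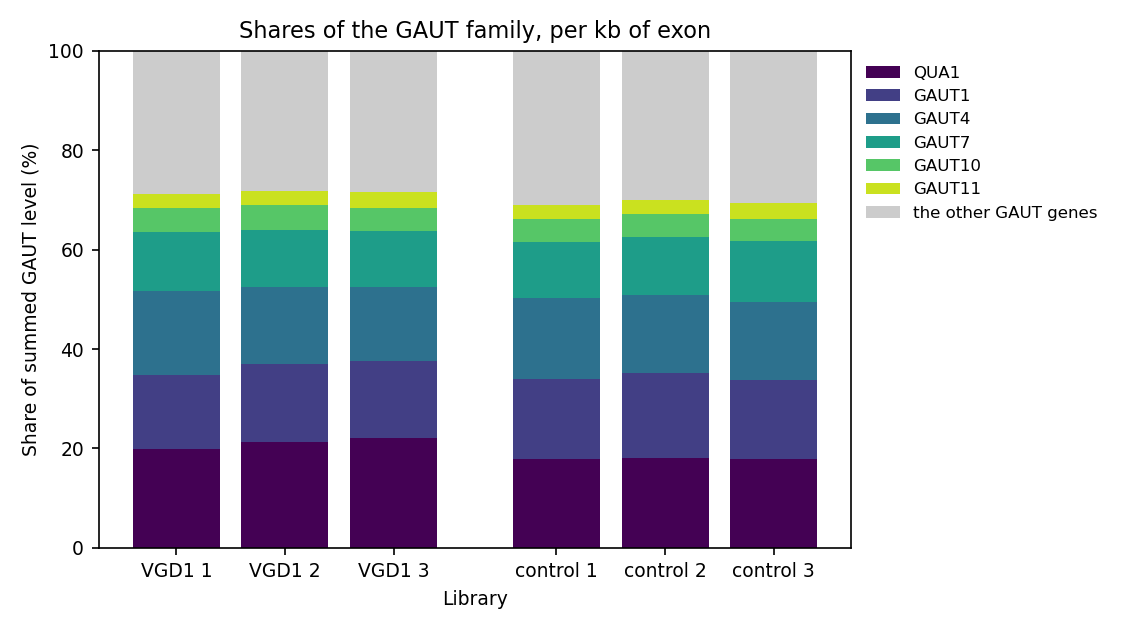
Share of each GAUT gene in the summed RNA of the 15 family members per kb of exon (y axis, percent) in each of the 6 libraries, with those labelled VGD1 on the left. The lowest, dark segment is QUA1, with 20.0% to 22.1% in the libraries labelled VGD1 and 17.8% to 18.1% in controls; grey is the sum of the 9 GAUT genes outside the 6.

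The remaining genes of the pathway, in 6 lists, were also without a called member. Of 45 listed genes 43 were tested, and edgeR called 0 of 43, beside 0.416% of all tested genes. At an unadjusted edgeR p under 0.05 there were 3 (UGD1, UGD3 and SAHH2), beside 13.6% of all tested genes. The limma-voom fit called 0 with the same 3, where over all genes it called 45 of 19719 and put 2798 under 0.05 unadjusted. DESeq2 called 0 of 44 with PMR5 added to those 3, where over all genes it called 419 of 20519 and put 2363 under 0.05 unadjusted. The groups did not overlap for 6 of the 43 tested, beside the 17.2% of all tested genes given above. GATL4 fell under the filter. GAE4 was listed at 0 in all 6 libraries, but 1954 of its 1962 bp of exon overlap AT2G45315 on the other strand, which was also listed at 0, and whether reads there were left uncounted was not tested. Among the genes named below, GAUT12 and RWA1 overlap genes on the other strand along 51 and 172 bp of exon.

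The 9 other GAUT genes included 8 below 0, with a median log2 fold change of -0.11, and no pair of groups was apart. GAUT12 (IRX8), which acts in secondary walls of xylem, had the smallest p of that list. Its level was 1.30, 3.02 and 1.83 CPM in the libraries labelled VGD1 against 3.28, 2.82 and 3.15 CPM in controls (log2 fold change -0.58, SE 0.33, edgeR adjusted p = 0.494), beside the lower vascular marker sums given above. Of 9 tested GAUT-like (GATL) genes 8 lay above 0, with a median of 0.11. GATL9 had the smallest p there, with 115, 173 and 136 CPM in the libraries labelled VGD1 against 115, 117 and 122 CPM in controls (edgeR adjusted p = 0.448), its groups overlapping. Both QUA2-like genes lay slightly below 0, and QUL1 stood at 34.8 ± 1.89 CPM in the libraries labelled VGD1 and 36.6 ± 2.80 CPM in controls (SD, n = 3 each; edgeR adjusted p = 0.856).

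Genes that supply UDP-galacturonic acid, the sugar donor, lay on both sides of 0, 3 above and 7 below (6 and 4 with library totals in place of TMM), with a median log2 fold change of -0.02. UDP-glucose dehydrogenases (UGD) make UDP-glucuronic acid, which epimerases (GAE) turn into UDP-galacturonic acid. UGD3 had the smallest p of the 6 pathway lists, with 60.1, 79.8 and 80.6 CPM in the libraries labelled VGD1 against 89.9, 109.7 and 99.3 CPM in controls. All libraries labelled VGD1 lay below all controls (log2 fold change -0.44, SE 0.13, edgeR adjusted p = 0.189). The groups were apart for 4 of 10 tested genes of this list, beside 17.2% of all tested genes; the other 3 were named after their values were seen. UGD1 lay higher, at 34.1, 31.0 and 33.5 CPM in the libraries labelled VGD1 against 28.4, 27.2 and 25.2 CPM in controls (log2 fold change 0.28, SE 0.10, edgeR adjusted p = 0.266). UGD4 and GAE3 lay lower, with log2 fold changes of -0.18 each (edgeR adjusted p = 0.440 and 0.546).

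Methyl groups for pectin come from S-adenosylmethionine, and S-adenosylhomocysteine, the by-product that inhibits methyltransferases, is cleared by SAHH enzymes. Of 8 genes of this cycle 6 lay below 0, with a median log2 fold change of -0.13. SAHH2 stood at 209.99, 339 and 305 CPM in the libraries labelled VGD1 against 396, 439.7 and 348 CPM in controls. Its groups were apart, and replicate 1 labelled VGD1 was far below the rest (log2 fold change -0.47, SE 0.17, edgeR adjusted p = 0.279). SAHH1, its more abundant copy, named after its values were seen, stood at 1539 ± 173 CPM in the libraries labelled VGD1 and 1531 ± 22.8 CPM in controls (SD, n = 3 each; log2 fold change 0.0079, edgeR adjusted p = 0.988). Of 5 genes of wall acetylation, another modification of pectin, PMR5 had the smallest p, with 17.98, 16.4 and 23.7 CPM in the libraries labelled VGD1 against 22.1, 24.8 and 29.5 CPM in controls (log2 fold change -0.36, SE 0.16, edgeR adjusted p = 0.370), and its groups overlapped. RWA1, an acetylation gene named after its values were seen, was the 1 gene of that list with groups apart, at 25.3 ± 0.56 CPM in the libraries labelled VGD1 and 23.3 ± 0.52 CPM in controls (SD, n = 3 each; edgeR adjusted p = 0.665).

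**Figure D4:**
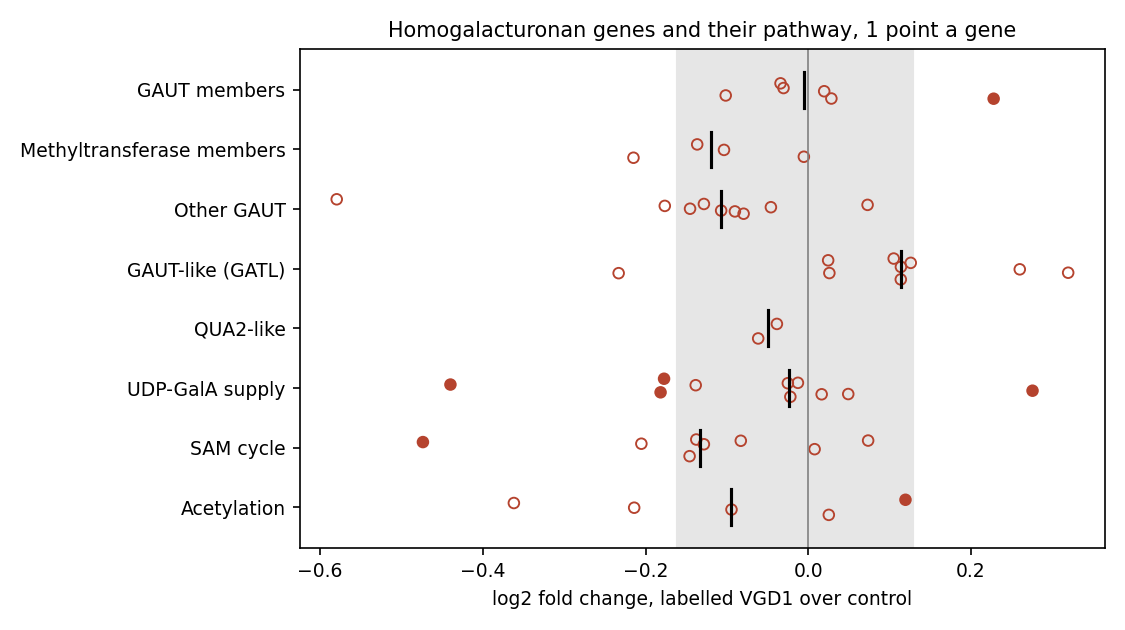
Log2 fold change in the libraries labelled VGD1 over controls (x axis) for each tested gene of the 10 and of the pathway lists (rows); filled points are genes whose groups did not overlap, black ticks list medians, and the grey band the middle 50% of all tested genes (-0.16 to 0.13). No gene passed the test, and filled points lie on both sides of 0.

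To place QUA1 and QUA2 among other genes, each was compared with 13475 tested genes of at least 10 CPM by the root mean square difference of log2 CPM, centred on each gene's mean, over the 6 libraries. Closest to QUA1 were APC7, AT5G17910 and AT2G29970, at 0.0280, 0.0288 and 0.0320, where the median over all genes was 0.187. APC7 averaged 32.1 CPM in the libraries labelled VGD1 and 27.7 CPM in controls. Closest to QUA2 were AT3G44100, STN7 and AT5G15910, at 0.0298, 0.0328 and 0.0361, where the median was 0.191. STN7 averaged 51.5 CPM in the libraries labelled VGD1 and 53.6 CPM in controls. The measure uses all 6 libraries of both groups, and it is small for any genes that both vary little.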

How the data were processed

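The authors deposited counts of reads per gene, 1 table per library, over the same 32833 loci. The file headers name RNA STAR as the aligner. TAIR10 and DESeq2 appear, without role or version, per the submitters' processing notes. No source used here gives the counting tool, the strand setting or the annotation. Groups and replicate numbers came from sample titles. The labels were checked on VGD1 and on marker lists.

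Counts were compared with edgeR 4.0.16 in R 4.3.3: TMM factors, filterByExpr (minimum count 10, minimum total 15), glmQLFit (robust, legacy off) and a two-sided quasi-likelihood F test, adjusted by Benjamini-Hochberg over 19719 genes at a threshold of 0.05. The step was tested on simulated data. Standard errors came from the fold change and F statistic, and 95% intervals from a t distribution. The GAUT1 to GAUT7 ratio, the methyltransferase ratio and the CGR2 share were tested by exact permutation over libraries. Floors of 3 counts cover counting error only. Over the 10 genes the lowest count was 148 (GAUT11, control replicate 3), a counting error of 8.22%.

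Exon length, coding sequence and overlaps came from the RefSeq annotation of TAIR10.1, and since that build's name differs from the one in the notes no coordinates are given. CGR2 carries no symbol there. DESeq2 1.42.0, limma-voom (limma 3.58.1) and the other alternatives appear in the closing section. The genes, lists and tests were chosen with earlier results of these data known. Genes named are the 10, VGD1, VGDH1, 4 meristem genes, the called members of each pathway list or else its member with the smallest p, and the 3 nearest genes to QUA1 and to QUA2. Outside that rule GAUT14, UGD1, UGD4, GAE3, SAHH1, RWA1 and A9 were named after their values were seen, and marker lists are given as sums.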

Additional observations from a re-analysis of the deposited data

How the results depend on the processing

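In all 14 alternatives 0 of the 10 genes and 0 members of each pathway list were called. The count over all genes, 82, came to 139 without a filter on low counts, 419 with DESeq2, 45 with limma-voom and 54 with libraries thinned to the smallest total. With 1 library left out it was 202 (replicate 1 labelled VGD1 missing), 45 (replicate 3 labelled VGD1), 12 (control replicate 1), 4 (control replicate 2) or 189 (control replicate 3). With the replicate number as a block it was 194, and the block called 0 of the 10 genes. Deviations of same-numbered libraries correlated at -0.01, 0.03 and 0.09, and those of different-numbered libraries at -0.09 to 0.06. With 3 libraries per group this cannot decide whether the numbers pair the libraries. A few log2 fold changes close to 0 turned sign, without a call: GAUT7 came to 0.0018 and QUA3 to 0.026 with library totals only, QUA3 to 0.0063 without the filter, and GAUT11 to -0.00017 with the block and -0.045 after thinning. Leaving out 1 library gave -0.041 to 0.072 for GAUT11 and -0.056 to 0.071 for QUA3. The CGR2 share difference was -0.468 to 1.82 percentage points when 1 library was left out, and turned sign without replicate 1 labelled VGD1. The other 7 genes kept their sign in all 14 alternatives, and the other 2 ratios in the 8 alternatives run for them. The cause of these shifts was not tested. Control replicate 3, with 6638772 counts, limits GAUT10, GAUT11 and CGR3 most, at 170, 148 and 277 counts there.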
